A study of Mus musculus with 13 samples.

Results

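The genes described here are 35 members of the p53 pathway, listed by name as known regulators or targets of the transcription factor p53 in the mouse, with earlier results of these data known. All 35 were found among the 16382 genes of the deposited tables and all passed the filter on low counts. They were measured by RNA-seq in wild-type C2C12 myotubes, the multinucleated cells formed when this mouse myoblast line is moved to medium with little serum. The PEA group received 10 μM palmitoylethanolamide, a fatty acid amide that cells also make themselves, and the CON group its vehicle DMSO. Exposure began at day 8 of differentiation and lasted 24 h until RNA was taken. There were 6 CON and 6 PEA libraries. C2C12 is a single clonal line, and the wells behind the libraries were duplicates in 3 repeats of the experiment. The study counts duplicate wells as technical replicates, so the 6 libraries of a group come from 3 repeats. Which libraries share a repeat is not given in the labels, so repeats could not be modelled. The p-values therefore measure the spread between libraries, part of it technical, and treat duplicate wells as independent.

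p53, the product of Trp53, is held low in resting cells by Mdm2, a ubiquitin ligase that marks it for degradation, and by its partner Mdm4. DNA damage and other stresses free p53, which then binds response elements near its target genes. The targets include genes that halt the cell cycle, genes that repair DNA, genes that trigger apoptosis through the mitochondria, and genes such as Mdm2 itself that restrain p53 again. Much of this control acts on the p53 protein, which RNA-seq does not measure. In differentiating muscle, Cdkn1a (p21) is also known as a gene switched on when myoblasts leave the cell cycle for good.

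The response element that p53 binds has a 20-base consensus made of 2 copies of a 10-base palindromic motif, so that a search of either strand covers both. The sequence within 3000 bases of the start of each member's canonical transcript was read from GRCm39 and searched for the canonical p53 response element with no spacer, the C and G cores intact and at most 2 mismatches in the other 16 positions. Such an element was found for 10 of 35 members (28.6%), against 772 of 12143 protein-coding genes tested (6.36%). Most members were listed as known p53 targets, so this excess is no separate evidence. Shown here are the elements with at most 1 mismatch and those of Pidd1 and Bax, which the results return to. The capitals mark the C and G cores.

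Zmat3, intron 1, chr3:32418480-32418499, minus strand, 0 mismatches: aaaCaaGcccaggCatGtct
Ccng1, 170 bases upstream of the start, chr11:40646289-40646308, minus strand, 1 mismatch: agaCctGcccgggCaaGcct
Ccng1, intron 1, chr11:40645763-40645782, minus strand, 1 mismatch: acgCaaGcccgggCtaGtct
Cdkn1a, 2836 bases upstream of the start, chr17:29309902-29309921, plus strand, 1 mismatch: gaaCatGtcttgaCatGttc
Pidd1, exon 2, chr7:141023239-141023258, minus strand, 2 mismatches: agcCttGcctaagCagGctt
Pidd1, exon 2, chr7:141023216-141023235, minus strand, 2 mismatches: tggCaaGctgggaCatGtct
Bax, intron 1, chr7:45115998-45116017, minus strand, 2 mismatches: gggCagGcccgggCttGtcg

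The other members with an element, each at 2 mismatches, were Eda2r, Fas, Perp, Plk2 and Pmaip1. A match is a description of the sequence and does not show binding, and a member without a match may hold an element of another form or farther away.

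The estimated counts of a library summed to 12354845 in the shallowest and 50397444 in the deepest, CON replicate 1, with a median of 18420605. CON replicates 3 and 6 had the lowest scores on the first principal component of all genes (-35.3 and -26.6, with 30.1% of the variance), and CON replicate 2 scored 9.58, within the PEA range of 5.61 to 20. The counts of called members, in all and by role, are given with and without CON replicates 3 and 6. Markers of the labelled cell type were abundant. The summed normalized counts of 12 myotube markers lay between 115072 and 170813 in CON and between 119023 and 133285 in PEA. The log2 fold change was below 0 for 11 of the 12, with a median of -0.22. In PEA 4 of 12 were called as lower (Myh8, Tnnt3, Mb and Tnni2), against 4.74% of all genes tested. Of the 2 immune markers tested, Cd68 and Lyz2, neither was called, and Ptprc was at 0 in most libraries. In bulk RNA, fewer cells of a type and less RNA per cell cannot be told apart.

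Of the 35 members, 8 were higher in PEA and 0 were lower in edgeR's quasi-likelihood test with Benjamini-Hochberg adjustment over 13142 genes (adjusted p below 0.05). Among all genes tested, 6.31% were called as higher and 4.74% as lower, against 22.9% and 0 of the members. At an unadjusted p below 0.05, 17 members were higher (14.3% of all genes) and 0 were lower (13.1% of all genes). DESeq2 called 12 members as higher (7.48% of the genes it tested) and 0 as lower. For 5 members every PEA library lay above every CON library, which held for 2.53% of all genes. The changes were small: the log2 fold change, PEA against CON, ran from -0.17 for Sesn1 to 0.72 for Pidd1, with a median of 0.16 over the members and 0.01 over all genes tested. It was above 0 for 30 of 35 members (85.7%), against 51.3% of all genes. With CON replicates 3 and 6 left out, a setting chosen after the data had been seen, 4 members were called (Polk, Ercc5, Bbc3 and Pidd1), while the calls over all genes, in both directions, went from 1452 of 13142 to 841 of 13338. Leaving out 1 library gave 5 called members without PEA replicate 5 or 6, where 6.01% and 5.89% of all genes were called in either direction, and up to 15 without CON replicate 2, where 16.7% were.

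**Figure D1:**
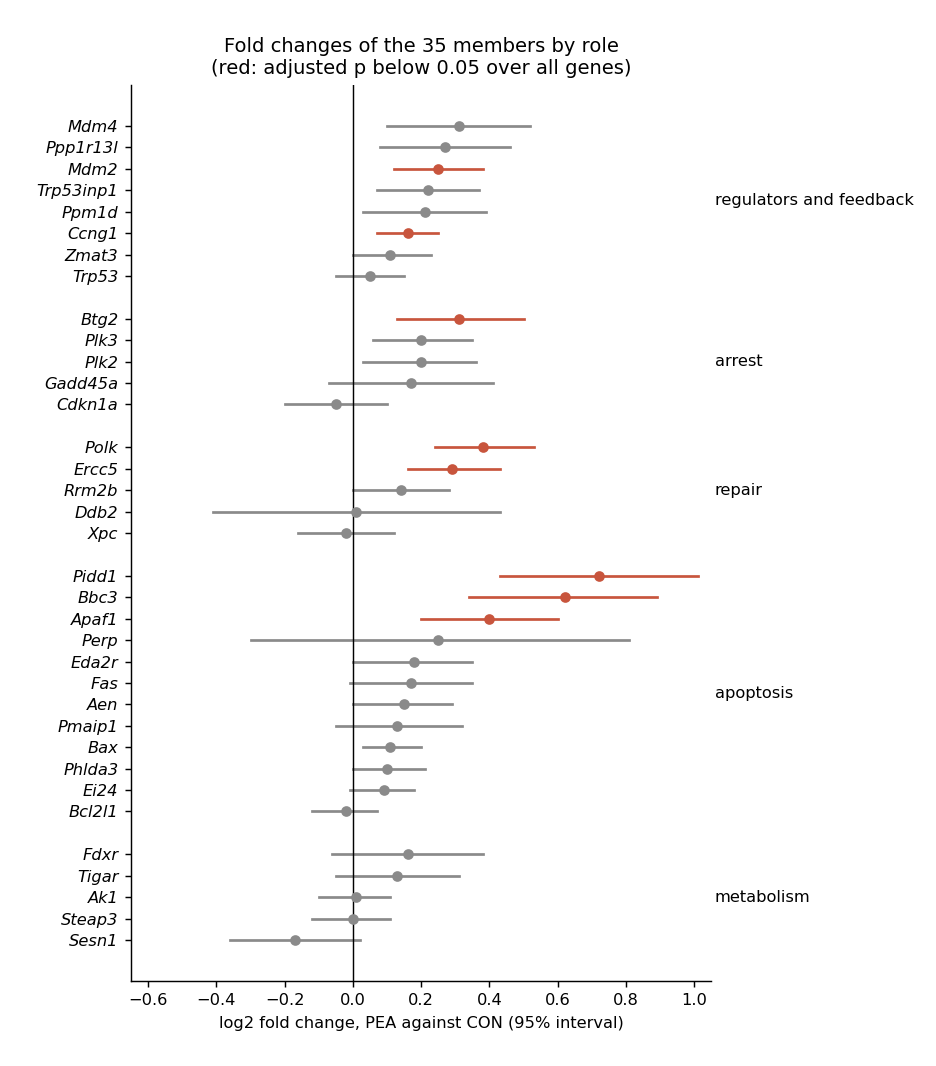
Log2 fold change of each of the 35 members (PEA against CON, n = 6 per group) with its 95% interval from edgeR, grouped by role and ordered within each role. Red points are the 8 members with an adjusted p below 0.05 over all genes. Pidd1 and Bbc3 lie farthest to the right and the 5 metabolic members lie between -0.17 and 0.16.

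By role, the called members were 2 of 8 regulators and feedback genes, 1 of 5 arrest genes, 2 of 5 repair genes, 3 of 12 apoptosis genes and 0 of 5 metabolic genes, against 6.31% of all genes. With so few genes in a role, counts of 0 or 1 are close to that share. The median log2 fold change was 0.22 in regulators and feedback, 0.20 in arrest, 0.14 in repair, 0.16 in apoptosis and 0.01 in metabolism. All 8 regulators and feedback genes had a fold change above 0, as did 4 of 5 arrest genes, 4 of 5 repair genes, 11 of 12 apoptosis genes and 3 of 5 metabolic genes. The difference between roles was not tested. Without CON replicates 3 and 6 the called members were 0 of 8 regulators and feedback genes, 0 of 5 arrest genes, 2 of 5 repair genes and 2 of 12 apoptosis genes, and the medians were 0.14, 0.09, 0.11 and 0.09, with 0.02 in metabolism. The size and order of the role medians therefore rest on these libraries, while the numbers of fold changes above 0 in each role were equal with and without them. In repair and metabolism, single genes close to 0 changed sign in both directions. Without these libraries Ddb2 went from 0.00842 to -0.111 and Xpc from -0.0201 to 0.0145. Ak1 went from 0.00731 to -0.0469 and Steap3 from -0.00276 to 0.0247. Regulators and arrest genes also gave 0 calls without PEA replicate 5 or without PEA replicate 6. A p53 element, as searched for above, was found for 2 of the 8 called members (25%) and for 8 of the 27 others (29.6%).

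Among the regulators, Trp53 itself did not pass the test, while Mdm2 and Ccng1, both feedback genes that p53 switches on, rose by 18.9% and 11.5%. Trp53 had 3134, 3487 and 3774 normalized counts (lowest, median and highest library) in CON and 3410, 3614 and 3872 in PEA. The ranges overlapped over most of their length. The log2 fold change was 0.05 with a 95% interval of -0.05 to 0.15 (edgeR, adjusted p = 0.57).

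Mdm2 (ENSMUSG00000020184, chr10:117524780-117546730, GRCm39) had 3747, 4549 and 4852 normalized counts in CON and 4817, 5376 and 5606 in PEA. In 5 of 6 PEA libraries it was above the highest CON library. Its mean rose from 4462 ± 430 to 5298 ± 332 (SD, n = 6), a log2 fold change of 0.25 ± 0.06 (SE, adjusted p = 0.019, edgeR). The call was lost without PEA replicate 5 (adjusted p = 0.0507), without PEA replicate 6 (0.0521) and without CON replicates 3 and 6 together (0.058).

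Ccng1 (ENSMUSG00000020326, chr11:40639377-40646148), cyclin G1, which recruits a phosphatase to Mdm2, had 9117, 10051 and 10564 normalized counts in CON and 10676, 11179 and 11511 in PEA. The groups did not overlap, although the rise was the smallest of the 8 called members. Its mean rose from 10008 ± 487 to 11145 ± 357 (SD, n = 6), a log2 fold change of 0.16 ± 0.04 (SE, adjusted p = 0.0284, edgeR). This gene carries the pair of elements with 1 mismatch shown above, at 170 bases upstream and 356 bases downstream of its start. Its call was lost without CON replicate 5 (adjusted p = 0.0503), PEA replicate 3 (0.0513), 4 (0.0633), 5 (0.0695) or 6 (0.0563), and without CON replicates 3 and 6 together (0.0693).

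Mdm4 did not reach the threshold although its fold change was larger than that of Mdm2. It had 703, 969 and 1047 normalized counts in CON and 940, 1169 and 1277 in PEA, and 4 of 6 PEA libraries were above the highest CON library. The log2 fold change was 0.31 ± 0.10 (SE, adjusted p = 0.0552, edgeR), and it was called by DESeq2 (adjusted p = 0.0273) and after thinning to the smallest library (0.0473). Without CON replicates 3 and 6 the log2 fold change of Mdm4 was 0.177 (adjusted p = 0.21, edgeR). That of Mdm2 was then 0.184, so Mdm4 no longer had the larger value. Among the other regulators, Trp53inp1, which promotes the phosphorylation of p53, had a log2 fold change of 0.22 (adjusted p = 0.0557) and Ppp1r13l, the inhibitor iASPP, of 0.27 (adjusted p = 0.0639). DESeq2 called both, with adjusted p of 0.0367 and 0.0419. The phosphatase gene Ppm1d, also known as Wip1, stood at 0.21 (adjusted p = 0.119) and the RNA-binding protein gene Zmat3, the only member with a perfect element, at 0.11 (adjusted p = 0.189).

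Within a library, the ratio of Mdm2 to Trp53 counts was 1.29 ± 0.155 in CON and 1.48 ± 0.113 in PEA (SD, n = 6; two-sided exact permutation test, p = 0.0368, adjusted p = 0.0552 over 3 ratios). The CON libraries ran from 1.04 to 1.41 and the PEA libraries from 1.32 to 1.63, with 4 PEA libraries above every CON library. The ratio of Mdm2 to Mdm4 was 4.96 ± 0.713 in CON and 4.71 ± 0.385 in PEA (exact permutation p = 0.528, adjusted p = 0.528). Neither ratio passed the threshold with all libraries. The Mdm2 to Trp53 ratio passed without CON replicate 1 (adjusted p = 0.0422), CON replicate 5 (0.0487) or PEA replicate 1 (0.0455, exact permutation tests), and its log2 difference went from 0.205 between means to 0.119 between group medians. For all 3 ratios, the smallest p that the 924 assignments of the libraries allow is 0.00216. These assignments treat the 6 libraries of a group as independent, although they came from duplicate wells in 3 repeats.

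**Figure D2:**
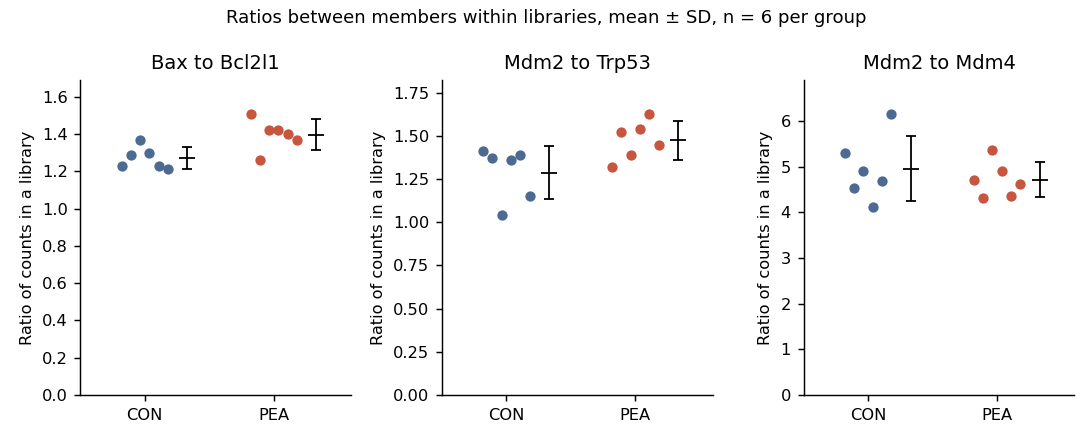
Ratios of the counts of 2 members within each library (points), with mean ± SD at the right of each group (n = 6 per group, linear axes from 0). Bax to Bcl2l1 lies at 1.27 in CON and 1.40 in PEA, Mdm2 to Trp53 at 1.29 and 1.48, and Mdm2 to Mdm4 at 4.96 and 4.71, and the groups overlap in all 3 ratios.

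Of the 5 arrest genes, Btg2 rose and Cdkn1a, the most abundant member, did not pass the test. Cdkn1a, the inhibitor of cyclin-dependent kinases that serves as the classical readout of p53, had 28979, 36094 and 41659 normalized counts in CON and 33353, 34323 and 37845 in PEA. All PEA values lay inside the CON range, and 1 of 6 was above the CON median. The log2 fold change was -0.05 with a 95% interval of -0.20 to 0.10 (adjusted p = 0.698, edgeR). It was -0.0055 without CON replicate 2 (adjusted p = 0.971), -0.106 without CON replicate 3 (0.268) and -0.137 without CON replicates 3 and 6 (0.161). Its element 2836 bases upstream, shown above, has 1 mismatch. Of its annotated exon bases, 12.5% are shared with genes on the opposite strand, and whether the authors' counting used strand is not stated in the sources used here.

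Btg2 (ENSMUSG00000020423, chr1:134002908-134015033), an antiproliferative gene that slows entry into S phase, had 864, 942 and 1187 normalized counts in CON and 1002, 1181 and 1386 in PEA. The groups overlapped, and all 6 PEA libraries were above the CON median. Its mean rose from 973 ± 121 to 1205 ± 150 (SD, n = 6), a log2 fold change of 0.31 ± 0.09 (SE, adjusted p = 0.0319, edgeR). This was the least stable of the 8 calls, since it held in 5 of 12 fits that left out 1 library. It was lost without CON replicate 3 (adjusted p = 0.0566), 4 (0.0557), 5 (0.0559) or 6 (0.075), without PEA replicate 4 (0.0612), 5 (0.0827) or 6 (0.0846), and without CON replicates 3 and 6 together (0.131). An antisense gene shares 14.3% of its exon bases.

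Gadd45a, which links p53 to arrest in G2, had 4390, 6579 and 8675 normalized counts in CON and 6706, 7164 and 7855 in PEA. The CON libraries were spread on both sides of the PEA range. The log2 fold change was 0.17 with a 95% interval of -0.07 to 0.41 (adjusted p = 0.359, edgeR), and 55.8% of its exon bases are shared with an antisense gene, so reads of the pair may not be separable. Its value depended on single libraries, at 0.273 without CON replicate 2 (adjusted p = 0.0529), 0.0801 without CON replicate 3 (0.611) and 0.0079 without CON replicates 3 and 6 (0.966). The kinase genes Plk2 and Plk3 both stood at 0.20 (adjusted p = 0.111 and 0.0642).

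**Figure D3:**
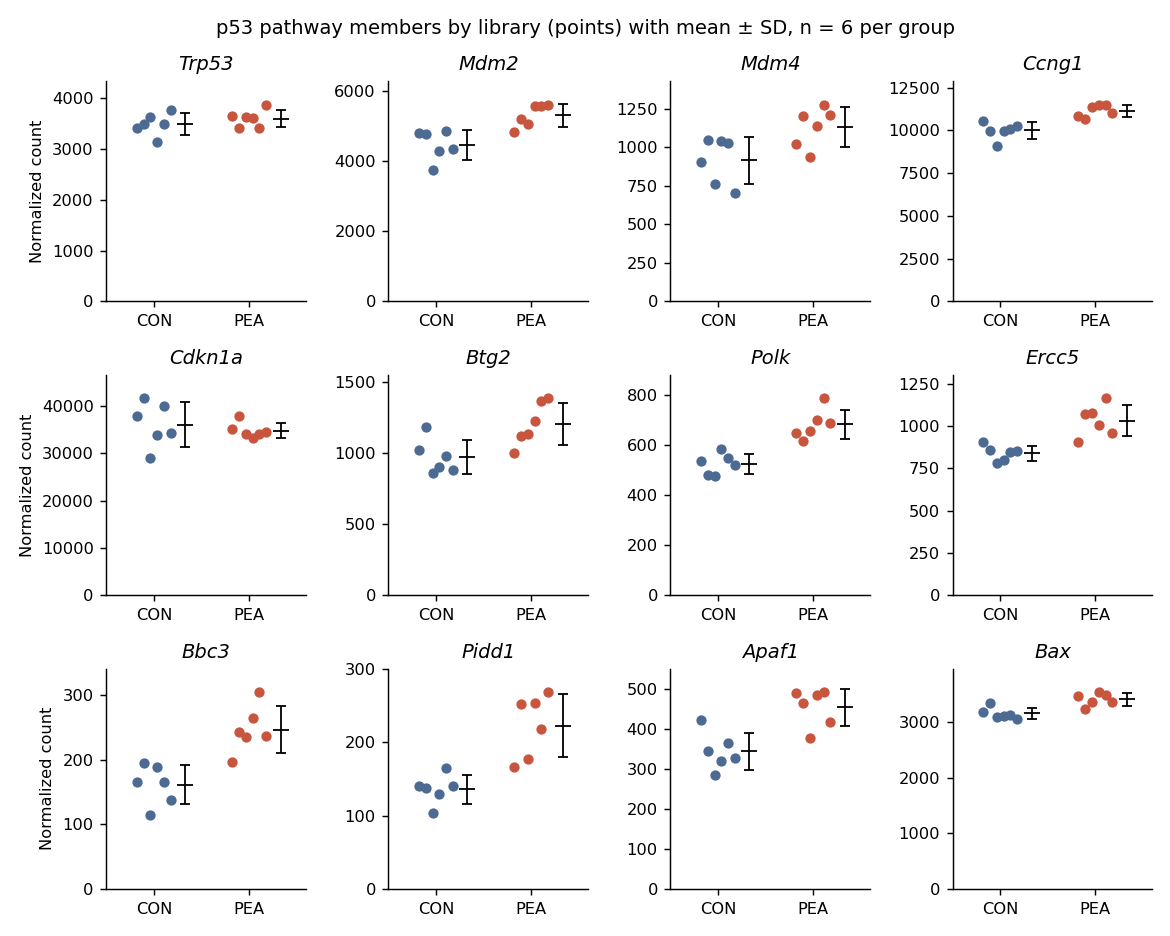
Normalized counts of 12 members in each library (points; blue CON, red PEA) with mean ± SD at the right of each group (n = 6 per group, linear axes from 0). PEA libraries lie above every CON library for Ccng1, Polk, Ercc5, Bbc3 and Pidd1, and inside the CON range for Cdkn1a.

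Of the 5 repair genes, Polk and Ercc5 rose without overlap between the groups, and the other 3 did not pass the test. Polk (ENSMUSG00000021668, chr13:96617196-96679087) encodes the translesion polymerase κ, which copies past damaged bases. It had 477, 529 and 586 normalized counts in CON and 619, 673 and 788 in PEA. The mean rose from 526 ± 41.4 to 684 ± 58.6 (SD, n = 6), a log2 fold change of 0.38 ± 0.07 (SE) with the smallest adjusted p of the members (0.00325, edgeR).

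Ercc5 (ENSMUSG00000026048, chr1:44186888-44220420) encodes XPG, the endonuclease that cuts on the 3′ side of a lesion in nucleotide excision repair. It had 782, 850 and 904 normalized counts in CON and 908, 1042 and 1164 in PEA. The mean rose from 841 ± 44.7 to 1031 ± 92.3 (SD, n = 6), a log2 fold change of 0.29 ± 0.06 (SE, adjusted p = 0.0078, edgeR). The lowest PEA library and the highest CON library, PEA replicate 1 at 908 and CON replicate 1 at 904, were close to each other.

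The damage sensors of the same repair route gave no call. Xpc, which recognises distorted DNA, had a mean of 469 ± 39.5 in CON and 463 ± 15.1 in PEA (SD, n = 6), a log2 fold change of -0.02 with a 95% interval of -0.16 to 0.12 (adjusted p = 0.872, edgeR). Ddb2 had 67.6 ± 13.1 and 68.7 ± 20 normalized counts (SD, n = 6; adjusted p = 0.983, edgeR), with an interval of -0.41 to 0.43 on the log2 scale. That interval is wide, the counts are low and 46.3% of the exon bases of Ddb2 are shared with antisense genes. Rrm2b, the p53-inducible subunit of ribonucleotide reductase, stood at 0.14 (adjusted p = 0.186).

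The apoptosis genes held the largest fold changes, in Pidd1 and Bbc3, and Apaf1 was called as well. Pidd1 (ENSMUSG00000025507, chr7:141018026-141023938) encodes the scaffold of the PIDDosome, the complex that activates caspase-2. It had 104, 139 and 165 normalized counts in CON and 166, 235 and 268 in PEA. The mean rose from 136 ± 19.9 to 222 ± 42.9 (SD, n = 6), 1.64-fold, with a log2 fold change of 0.72 ± 0.14 (SE, adjusted p = 0.0046, edgeR). The groups did not overlap, but PEA replicates 1 (166) and 3 (177) lay close to CON replicate 5 (165), and the other PEA libraries lay between 218 and 268. The pair of elements shown above lies in exon 2, 680 and 703 bases from the start.

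Bbc3 (ENSMUSG00000002083, chr7:16042318-16052130) encodes PUMA, a BH3-only protein that frees Bax from its inhibitors. It had 115, 165 and 195 normalized counts in CON and 196, 239 and 304 in PEA. The mean rose from 161 ± 30.5 to 246 ± 35.7 (SD, n = 6), 1.53-fold, with a log2 fold change of 0.62 ± 0.13 (SE, adjusted p = 0.00837, edgeR). The groups met without overlap at CON replicate 2 (195) and PEA replicate 1 (196).

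Apaf1 (ENSMUSG00000019979, chr10:90825173-90918686) encodes the core of the apoptosome, which activates caspase-9 once cytochrome c leaves the mitochondria. It had 285, 335 and 421 normalized counts in CON and 377, 474 and 491 in PEA, and 4 of 6 PEA libraries were above the highest CON library. The mean rose from 343 ± 46.4 to 454 ± 46.6 (SD, n = 6), a log2 fold change of 0.40 ± 0.09 (SE, adjusted p = 0.0149, edgeR). The call was lost without CON replicates 3 and 6 together (adjusted p = 0.0626).

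Pmaip1 (NOXA), the other BH3-only gene, had 390, 468 and 589 normalized counts in CON and 452, 521 and 571 in PEA. All PEA values lay inside the CON range. The log2 fold change was 0.13 with a 95% interval of -0.05 to 0.32 (adjusted p = 0.354, edgeR), and the value was 0.205 without CON replicate 4, 0.0853 without CON replicate 6 and 0.0358 without CON replicates 3 and 6. With all libraries the interval of Pmaip1 ended below the point estimate of Bbc3, but the difference between these genes was not tested.

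Bax, which forms the pores in the outer mitochondrial membrane, had 3071, 3129 and 3354 normalized counts in CON and 3241, 3424 and 3545 in PEA. In 5 of 6 PEA libraries it was above the highest CON library, yet the mean moved only from 3163 ± 102 to 3417 ± 112 (SD, n = 6) and the log2 fold change of 0.11 ± 0.04 (SE) gave an adjusted p of 0.0691 in edgeR and of 0.0483 in DESeq2. Bcl2l1, the gene of the antiapoptotic protein Bcl-xL, had 2490 ± 130 and 2445 ± 96 normalized counts (SD, n = 6; log2 interval -0.12 to 0.07, edgeR adjusted p = 0.771). The ratio of Bax to Bcl2l1 counts within a library was 1.27 ± 0.0592 in CON and 1.40 ± 0.081 in PEA (SD, n = 6), a log2 difference of 0.14 ± 0.04 (SE; two-sided exact permutation test, p = 0.0152, adjusted p = 0.0455 over 3 ratios). PEA replicate 2, at 1.26, was the only PEA library inside the CON range of 1.21 to 1.37, and PEA replicate 6 lay just above that range. Leaving out 1 library brought the adjusted p above the threshold in 7 of 12 cases, with the largest value, 0.0909, without CON replicate 6 (exact permutation test), and the difference of group medians missed it as well (adjusted p = 0.0779). The lost cases were those without CON replicate 2, 4 or 6 or PEA replicate 3, 4, 5 or 6. The exon bases of Bax shared with other genes came to 13.6%.

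The remaining 6 apoptosis genes gave no call. Their log2 fold changes ran from 0.09 for Ei24 to 0.25 for Perp, with adjusted p between 0.17 (Aen, an exonuclease) and 0.578 (Perp, edgeR). The death receptor genes Fas and Eda2r stood at 0.17 and 0.18. Perp, a membrane protein gene better known from epithelia, was the least abundant member, with 26.9 ± 8.49 and 31.5 ± 8.11 normalized counts (SD, n = 6), and the 95% interval of its log2 fold change was -0.30 to 0.81.

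The metabolic targets gave 0 calls of 5 in edgeR, and DESeq2 called none of them either, a count to be read against the 6.31% of all genes called as higher and 4.74% as lower. Sesn1, a sestrin that restrains mTORC1, had the lowest fold change of the 35 members, and its normalized counts averaged 531 ± 61 in CON and 470 ± 58.8 in PEA (SD, n = 6; log2 fold change -0.17, 95% interval -0.36 to 0.02, edgeR adjusted p = 0.234). Tigar, which lowers glycolytic flux, stood at 0.13 (adjusted p = 0.359) and the mitochondrial ferredoxin reductase gene Fdxr at 0.16 (adjusted p = 0.36). Both moved with single libraries: Tigar was at 0.0757 and Fdxr at 0.2 without CON replicate 4. Without CON replicate 6 they were at 0.163 and 0.0925. For Ak1, the muscle adenylate kinase, the interval was -0.10 to 0.11, and for the ferrireductase gene Steap3 it was -0.12 to 0.11. None of the 5 had an unadjusted p below 0.05, which 14.3% of all genes had as higher and 13.1% as lower.

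The members covered a wide range of levels. Per kilobase of annotated exon, the mean level in CON was 5978 normalized counts for Cdkn1a, 3629 for Gadd45a, 2876 for Phlda3 (an inhibitor of Akt signalling) and 2275 for Ccng1. Mdm2 stood at 579 and Trp53 at 472. The 3 called apoptosis genes were near the bottom of this order, with 33.7 for Bbc3, 32.4 for Apaf1 and 26.5 for Pidd1, and only Ddb2 and Perp were lower. Neighbours in this order overlapped between CON libraries, except at the steps below Phlda3, Ccng1, Bax, Plk2, Trp53, Xpc and Pidd1. Exon length here is the union of all annotated exons, so the level of a gene with many rare exons is understated.

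**Figure D4:**
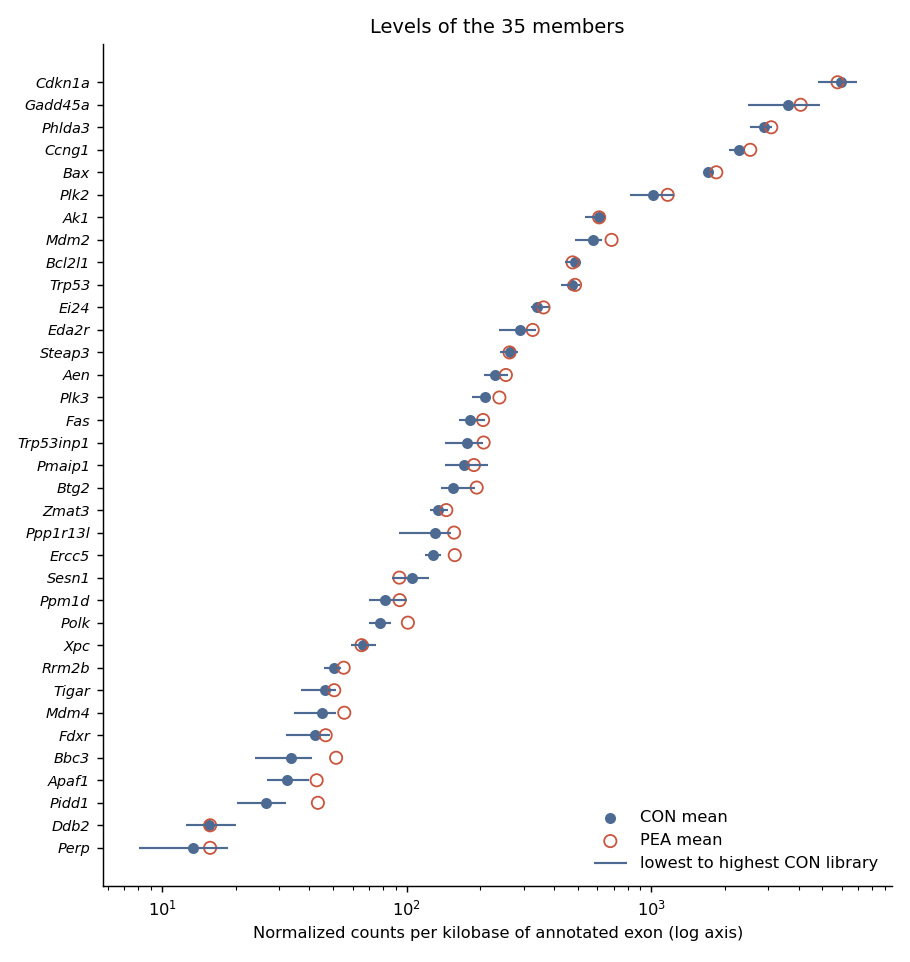
Level of each member in normalized counts per kilobase of annotated exon, on a log axis, ordered by the CON mean. Filled points are CON means, open points PEA means and lines the range of the CON libraries (n = 6 per group). Cdkn1a is at the top with 5978 in CON and 5764 in PEA, and Perp is at the bottom.

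The members also varied between libraries of the same treatment. CON replicate 3 was the lowest CON library for 20 of 35 members and for all 8 called members. CON replicate 2 was the highest CON library for 14 members, among them Cdkn1a, Gadd45a, Btg2 and Bbc3. In PEA, replicate 1 was the lowest library for 13 members, 5 of them called, and replicate 5 the highest for 10, 4 of them called. The coefficient of variation was lower in PEA than in CON for 25 of 35 members (71.4%), against 65.8% of all genes tested, and its median over members was 10.9% in CON and 8.18% in PEA.

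**Figure D5:**
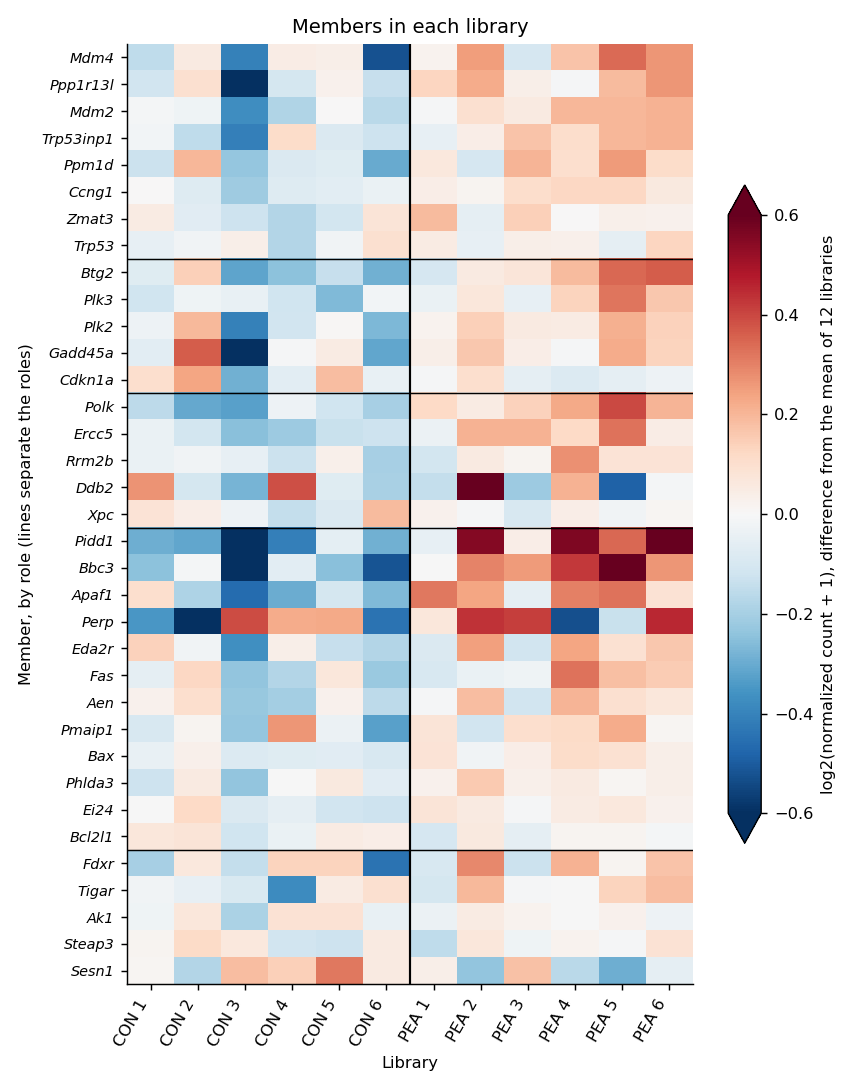
Each member (rows, grouped by role) in each library (columns), as log2(normalized count + 1) minus the mean of the 12 libraries. CON replicate 3 is the lowest CON library for 20 of 35 members, and the called apoptosis genes Pidd1 and Bbc3 show the strongest contrast between the groups.

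Genes upstream of p53 were read from a list of 17, of which 16 were in the tables and 15 passed the filter. Of these, 3 were called as higher and 0 as lower (20% against the 6.31% of all genes called as higher), and the median log2 fold change was 0.06. The called genes were Pml, which gathers p53 into nuclear bodies (log2 fold change 0.36, adjusted p = 0.00332), the damage kinase Atm (0.49, adjusted p = 0.029) and the checkpoint kinase Chek2 (0.58, adjusted p = 0.0498). The kinase Chek1 stood at 0.43 (adjusted p = 0.0609).

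A further list of 25 p53 targets, none of them among the 35, gave 7 calls as higher and 2 as lower (6.31% and 4.74% of all genes). The fold change was above 0 for 14 of 25 (56%), near the 51.3% of all genes, with a median of 0.06. The smallest p-values belonged to Ckap2 (0.77, adjusted p = 0.00102) and Gtse1 (0.75, adjusted p = 0.00463), which act on the mitotic spindle or in G2, to the death receptor gene Tnfrsf10b (0.39, adjusted p = 0.00134) and to the cytokine gene Gdf15 (0.48, adjusted p = 0.00185). Gdf15 also belongs to the amino acid response list described next, as does Sesn2. The genes called as lower were Cd82 (-0.13, adjusted p = 0.0276) and the cytochrome c gene Cycs (-0.23, adjusted p = 0.0343).

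Genes of dividing cells and of the amino acid response also differed between the groups. Of 18 proliferation genes, 17 were called as higher (6.31% of all genes), with a median log2 fold change of 0.70. Their summed normalized counts were 7967 to 13691 in CON and 13988 to 16751 in PEA. Of 10 genes of the amino acid response, 9 were called as higher (6.31% of all genes), with a median of 0.49. Their summed counts were 17253 to 25281 in CON and 21968 to 26960 in PEA. Of 6 markers of myoblasts and reserve cells, Cd34 was called as higher and Cdh15 as lower (6.31% and 4.74% of all genes). Their sums were 9185 to 11926 in CON and 9102 to 10636 in PEA, summed over all 6. Of 6 fibroblast markers, 2 were called as higher (Col1a2 and Dcn) and 0 as lower, against 6.31% and 4.74% of all genes. The fold change was above 0 for 4 of them and below 0 for Lum (-0.77) and Col3a1 (-0.12), neither called. Their sums were 69279 to 91194 in CON and 72380 to 83853 in PEA. The part of these genes and of the cells that express them in the values of the p53 members was not tested.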

How the data were processed

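Poly-A RNA of the 12 libraries was sequenced as paired reads. Per the labels and methods, the authors trimmed low-quality reads, mapped them to mm39 with STAR 4.4.1d and assigned them to Ensembl genes in Partek. The deposited tables hold the estimated count of each gene and a signal, these counts scaled by a DESeq2 size factor, here called normalized counts. The labels list PEA replicate 2 and a top-up run of it, to which 1 set of values belongs. Whether it holds both runs is not stated, and it was counted once. Of the genes, 16343 of 16382 matched a symbol in the GRCm39 annotation. The tables end at an Ensembl identifier above which the annotation has 2240 further protein-coding genes, which were not analysed here.

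Estimated counts were rounded and tested with edgeR 4.0.16 (quasi-likelihood, TMM, default filter) in R 4.3.3, PEA against CON. No covariate was used. Log2 CPM for principal components used a prior count of 2. Ratios used a pseudocount of 0.5 and exact permutation tests (Python 3.11.15, scipy 1.17.1). Figures used matplotlib 3.10.9. Alternatives used DESeq2 1.42.0, limma 3.58.1 on log2(normalized count + 1), other size factors, no filter, thinning to the smallest library, the replicate number as a block and leaving out each library. The 35 members, their roles and the other lists were chosen with earlier results of these data known. Library-wise values were given for called members and for Trp53, Mdm2, Mdm4, Cdkn1a, Bax, Bbc3, Pmaip1, Ccng1 and Gadd45a, and at most 4 genes by smallest p were to be named per other list. Further genes, among them some but not all of the called ones, were named after their values were seen. Errors reflect counting and the variation among libraries.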

Additional observations from a re-analysis of the deposited data

Results flagged for a closer look

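Of 76 groups of 6 libraries examined (each member in each treatment, and each ratio), 1 held a library that stood apart from the others by Dixon's test, and chance gives about 1 in 20. Phlda3 had 8577 normalized counts in PEA replicate 2, while the other PEA libraries lay between 7762 and 8007. The gap was 0.7 of the range of the group, above the limit of 0.625 for 6 libraries. Phlda3 was not called in edgeR (log2 fold change 0.10, adjusted p = 0.205).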

How the results depend on the processing

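Polk, Ercc5, Bbc3 and Pidd1 were called in all 19 other settings run, and 16 members were called in at least 1 setting. No member was called as lower in any setting. The number of members called as higher was 8 with median-of-ratios size factors, without a filter and with the deposited normalized counts in limma, 9 after thinning (Mdm4 added), 10 with the replicate block (Mdm4 and Ppp1r13l added) and 12 with DESeq2. Calls over all genes, in either direction, were 11.2% with median-of-ratios size factors, 8.08% without a filter and 11.5% in limma. They were 9.58% after thinning and 11.9% with the replicate block, against 11% in the reported fit. It ran from 5 (without PEA replicate 5 or 6) to 15 (without CON replicate 2) when 1 library was left out, and was 4 without CON replicates 3 and 6. The genes called among all genes, 1452 in the reported fit, were 778 (without PEA replicate 6) to 2203 (without CON replicate 2) with 1 library left out, 841 without CON replicates 3 and 6, 1570 with the replicate block and 1915 with DESeq2. Equal replicate numbers did not pair the libraries, since the correlations of their deviations ran from -0.0829 to 0.0649 and no CON library was most like the PEA library of its own number.

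The log2 difference of the Bax to Bcl2l1 ratio was 0.164 by group medians (adjusted p = 0.0779, exact permutation test) and 0.137 with the replicate block (adjusted p = 0.0938). It ran from 0.114 to 0.166 with 1 library left out, and missed the threshold without CON replicate 2, 4 or 6 or PEA replicate 3, 4, 5 or 6 (adjusted p up to 0.0909). The Mdm2 to Trp53 difference, 0.205 in the reported test, was 0.119 by group medians (adjusted p = 0.0779, exact permutation test). With 1 library left out it ran from 0.144 to 0.237 and passed the threshold without CON replicate 1 or 5 or PEA replicate 1 (lowest adjusted p = 0.0422, exact permutation test). The Mdm2 to Mdm4 difference ran from -0.117 to 0.000401 with 1 library left out and changed sign without CON replicate 6. The cause of these shifts was not tested. Perp and Ddb2 had the lowest mean normalized counts among the members, at 26.9 and 67.6 in CON.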
